A study of Xenopus laevis with 12 samples.

Results

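The 12 brain samples of this *Xenopus laevis* study fell into a first set (title numbers 1, 2, 5, 6, 9 and 10) and a second set (title numbers 3, 4, 7, 8, 11 and 12), with 6 samples in each set out of 12 in all. Each set held 2 control, 2 mixture and 2 T4 samples, so that set and exposure were balanced against each other. The sets were chosen from these same counts. On component 2 of a principal component analysis (PCA) of the variance-stabilised counts, the first set scored from −15.7 to −12.9 and the second from 12.97 to 15.6. The component was computed on all 38850 genes with at least 1 count, so the difference between the sets is described below without a test. Tests are given only for the exposures, for their dependence on the set and for reads outside the gene counts, none of which the choice of the sets had used. The study describes 2 different breedings, which it calls technical replicates, and 2 time points, but the labels do not give either for a sample. Breeding, time point and any other change of batch therefore cannot be told apart, and "set" is used here only for the title numbers.

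Each sample was a pool of 2 brains, dissected at stage NF 47 from tadpoles exposed for 8 days from fertilisation onwards. Control tadpoles were kept in water with the solvent DMSO, which all groups received. The mixture group received the amniotic mixture at 1x, made of phenols, phthalates, pesticides, metals and halogenated compounds at levels found in human amniotic fluid. The T4 group received thyroxine at 10 nM. Thyroxine is the prohormone that deiodinases convert to the receptor-binding T3. In tadpoles, thyroid hormone acts through nuclear receptors on the transcription of many brain genes, and its rise drives metamorphosis. Tadpoles of a single breeding are siblings, and *X. laevis* laboratory stocks can carry different alleles, so pools from different breedings are a usual level of replication in this animal. The species is allotetraploid and has many of its genes in similar L and S copies. The authors dropped reads that matched more than 1 place in the genome, which makes counts uncertain for copies that are nearly identical. The strand setting of the counting is not given in the sources used here, and genes that overlap on opposite strands are uncertain as well.

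The 51041 genes are listed only by number, and 0 numbers were found in the reference table of *X. laevis* gene names. Known functions, brain cell markers and gene lists could therefore not be examined, and at most 2 gene numbers are printed for each direction. In whole-brain RNA, fewer cells of a type and less RNA per cell cannot be told apart. Of the listed genes, 27141 passed the filter on low counts of edgeR. Levels are given as CPM, counts scaled to a common library size by TMM, and differences are log2 values of the second set minus the first set from an edgeR fit that kept the exposure in the model.

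No difference between the sets in depth or in the fate of the reads passed the threshold over all 12 samples, but some shares had the same sign in each exposure group. Reads on genes ranged from 10420292 to 11094124 in the first set and from 10518396 to 11685566 in the second, and between 33074 and 33855 genes per sample had at least 1 count. Reads outside genes made up 15.1% ± 0.866 of all reads in the first set and 15.5% ± 0.752 in the second (SD, n = 6 samples; exact two-sided permutation test, p = 0.374, adjusted p = 0.501 over 6 measures). Reads not aligned made up 22.3% ± 1.34 and 21.6% ± 1.61 (SD, n = 6; exact two-sided permutation test, p = 0.418, adjusted p = 0.501). With 6 pools on each side, p cannot go below 0.00216. Reads outside genes were higher in the second set in all 3 exposure groups, with means of 15.7% and 15.9% in the control, 15.5% and 16.0% in the mixture and 14.0% and 14.6% in the T4 samples. Reads on overlapping genes were also higher in the second set in all 3 groups, and reads not aligned were lower in all 3. With the set permuted only within exposure groups, a test added after the data were seen, the p-value for reads outside genes was 0.0278 (exact two-sided permutation test over 216 regroupings, adjusted p = 0.167 over 6 measures, smallest possible p = 0.00926). The other 5 measures had adjusted p-values from 0.467 to 0.593 in this exact permutation test. A T4 sample in each set stood apart in reads not aligned, with 24.9% in T4 sample 10 and 24.7% in T4 sample 12, against 20.3% to 22.4% in the other samples. Without T4 sample 12, the second-minus-first difference in reads not aligned was −1.36 percentage points (exact two-sided permutation test, adjusted p = 0.0390). Without T4 sample 10 instead, it was −0.214 percentage points (exact two-sided permutation test, adjusted p = 0.978). The second-minus-first difference in reads on overlapping genes was 0.0617 percentage points without T4 sample 12 (exact two-sided permutation test, adjusted p = 0.0260). Without T4 sample 10 it was 0.0260 percentage points (exact two-sided permutation test, adjusted p = 0.840). Leaving out a T4 sample also unbalances exposure between the sets, and this test ignores exposure. The part of these shares in the gene differences was not tested. Pools of the same group differed beyond counting noise, with a chi-square per degree of freedom of 3.02 to 4.12 over 6 pairs within a set and 5.01 to 6.92 over 12 pairs across sets. The floor of detection was set at 3 counts per pool, or 0.256 to 0.291 CPM. Floors and intervals cover counting error only.

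A few genes were near silent in every pool of one set and expressed in every pool of the other. Such genes, called all-or-none here, had at most 3 counts in all 6 samples of the lower set and at least 1 CPM in all 6 samples of the higher set. There were 13 of them, 0.0255% of the listed genes. In the second set, 7 were higher and 6 were lower. The level of these 13 genes in the set that expressed them was modest, with a mean of 1.42 to 12.5 CPM. Measured against the floor of 3 counts per library, they were at least 5.11-fold to at least 44.8-fold higher in that set. In 2 of them, all 6 samples of the lower set had 0 counts. The definition decides the number: with a floor of 10 counts it was 75, with at least 0.5 CPM in the higher set it was 28, and with 0 counts in the lower set it was 2.

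Among the all-or-none genes that were higher in the second set, gene41427 had the highest mean level. In the first set it had 0 and 1 counts in control samples 1 and 2, 1 and 0 in mixture samples 5 and 6, and 0 and 0 in T4 samples 9 and 10. In the second set it had 178 and 149 counts in control samples 3 and 4, 126 and 202 in mixture samples 7 and 8, and 87 and 82 in T4 samples 11 and 12. Every pool of the second set thus held this transcript, and the pools of the first set were at or near 0 whatever the exposure. Its level was 12.5 ± 4.35 CPM in the second set (SD, n = 6 samples), at least 44.8-fold above the floor of the first. Within the second set both T4 pools, at 7.30 and 7.56 CPM, were below all control and mixture pools, which had 11.9 to 17.3 CPM. With the set in the model, the log2 fold change of gene41427 after T4 was −1.06 (adjusted p = 0.00411 in edgeR). This call was made in all 12 fits that left out a sample, with adjusted p-values of edgeR from 0.00402 to 0.0372. As the first set held almost no counts, the call rests mainly on control samples 3 and 4 and T4 samples 11 and 12. Leaving out other samples bears little on it. Over all 12 fits the log2 fold change ranged from −1.18 without control sample 4 to −0.92 without control sample 3.

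In the other direction, gene44738 had the highest mean level. Its counts in the first set were 133 and 146 in control samples 1 and 2, 97 and 82 in mixture samples 5 and 6, and 108 and 63 in T4 samples 9 and 10. In the second set they were 3 and 3 in control samples 3 and 4, 2 and 2 in mixture samples 7 and 8, and 2 and 3 in T4 samples 11 and 12. The lower set was near silent but not empty here, with 2 or 3 counts in each pool. The level in the first set was 9.65 ± 2.58 CPM (SD, n = 6 samples), at least 35.5-fold above the floor of the second. After T4 the log2 fold change of gene44738 was −0.61 (adjusted p = 0.0458 in edgeR). The T4 call was lost in 8 of 12 fits that left out a sample, with adjusted p-values of edgeR from 0.0175 to 0.299.

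**Figure D1:**
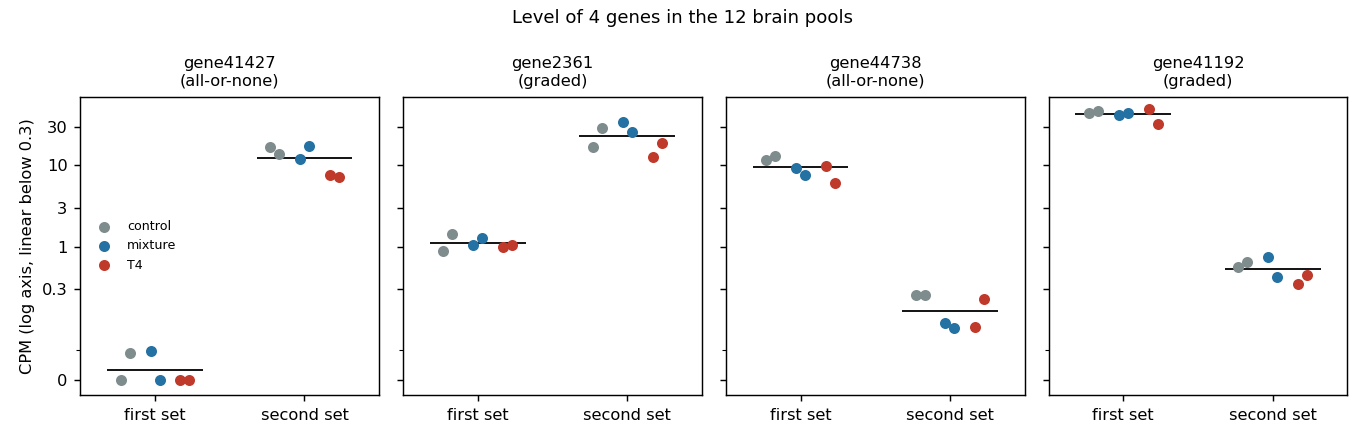
CPM of gene41427, gene2361, gene44738 and gene41192 in each of the 12 brain pools (1 point per pool, coloured by exposure; horizontal line, mean of the 6 pools of a set), on a log axis that is linear below 0.3 CPM. In each gene the 6 pools of one set lie apart from the 6 pools of the other, and in gene41427 both T4 pools are the lowest of the second set.

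Other genes were above the floor of 3 counts in all 12 pools and still differed many-fold. Their difference is called graded here, by this floor alone. The largest of these differences with no overlap between sets were those of gene2361, higher in the second set, and gene41192, lower in it. In the first set, gene2361 had 0.887 and 1.44 CPM in the control samples, 1.06 and 1.30 CPM in the mixture samples and 1.00 and 1.07 CPM in the T4 samples. In the second set, gene2361 had 16.7 and 28.8 CPM in the control samples, 34.0 and 25.8 CPM in the mixture samples and 12.8 and 19.0 CPM in the T4 samples. The first set was thus tight around 1 CPM, and the lowest pool of the second set, at 12.8 CPM, was well above it. The means of gene2361 were 1.13 ± 0.203 and 22.8 ± 8.05 CPM (SD, n = 6 samples), with a log2 difference of 4.31 that stayed between 4.18 and 4.42 when any sample was left out.

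For gene41192, the first set had 44.6 and 47.2 CPM in the control samples, 41.98 and 43.9 CPM in the mixture samples and 48.8 and 32.5 CPM in the T4 samples. The second set had 0.565 and 0.655 CPM, 0.758 and 0.427 CPM, and 0.347 and 0.445 CPM in the same order, from 4 to 8 counts per sample. The low level was thus seen after each exposure, just above the floor. Its means were 43.2 ± 5.76 and 0.533 ± 0.155 CPM (SD, n = 6 samples), and the log2 difference was −6.32 (−6.44 to −6.22 with a sample left out). Neither graded gene changed past the threshold after an exposure. With the set in the model, the log2 fold change after T4 was −0.46 for gene2361 (adjusted p = 0.146 in edgeR) and −0.20 for gene41192 (adjusted p = 0.326). Each of them passed in 1 of 12 fits that left out a sample, gene2361 without control sample 3 (adjusted p = 0.0309 in edgeR) and gene41192 without T4 sample 9 (adjusted p = 0.0119).

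Across all genes, the difference between the sets was a continuum with a long tail and not a split into unchanged and switched genes. The median log2 difference was −0.01, and 75.5% of the genes tested differed by less than 0.25 on the log2 scale. A difference of over 2-fold was reached by 951 genes, which is 3.5% of those tested, with 464 higher and 487 lower in the second set. Over 4-fold were 281 genes, 1.04% of those tested, with 141 higher and 140 lower. Of these, 134 were over 8-fold. Both directions were thus about equally frequent at each size. Fitted differences of genes with samples at 0 depend on the prior count, and the count over 4-fold was 223 on log2 CPM with a prior count of 2. When a sample was left out, 1043 to 1095 genes were over 2-fold and 299 to 330 were over 4-fold. The filter on low counts was run again in these fits and then required enough counts in fewer samples. These counts are all above 951 and 281, so they are not a range around them.

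In 938 of the genes tested, 3.46%, the 6 pools of one set all lay above the 6 pools of the other, 496 of them higher and 442 lower in the second set. Their median absolute log2 difference was 0.79, against 0.12 over all genes tested, and 551 of the 938 (58.7%) were within 2-fold. As many as 757 were above the floor in all 12 pools. The smallest difference without overlap was 0.08 on the log2 scale. Among the 951 genes over 2-fold, 387 did not overlap between the sets (40.7%), and among the 281 over 4-fold, 175 did not (62.3%).

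The genes with the largest differences were often near the floor in the lower set. Of the 281 genes over 4-fold, 56 had all 6 samples of a set at or under the floor, and 63 (22.4%) were above the floor in all 12 pools. In 29 of the 56, all 6 pools of the other set were above the floor. In 23 genes 5 pools were above it, and in 4 genes 4 pools were. The filter on low counts keeps a gene only if enough counts are reached in at least 4 samples. A gene expressed by a lone pool could therefore not be among the 56, and these numbers do not bear on that question. A pool that alone held more than 50% of the summed CPM of the 12 was found for 3 of the 281 genes. Over all 27141 genes tested it was found for 7, and the filter limits both counts.

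**Figure D2:**
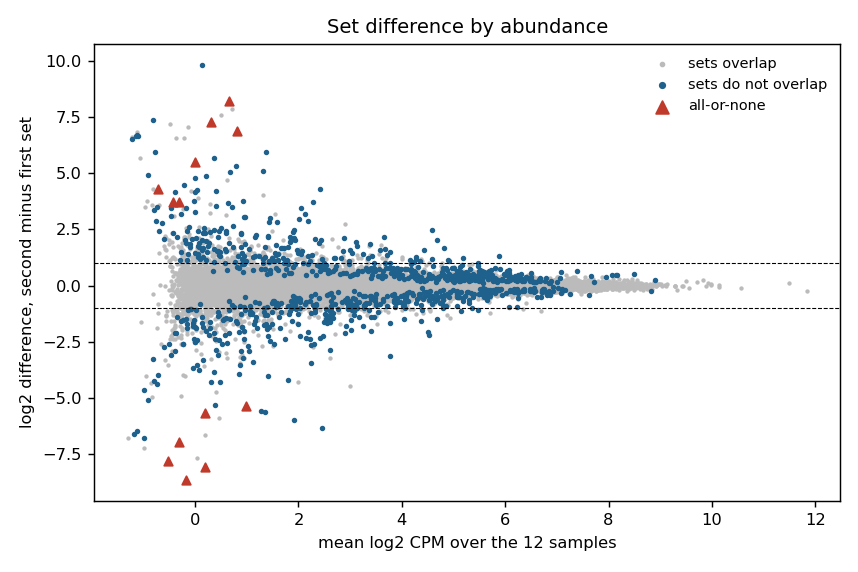
Log2 difference between the sets (second minus first, from the edgeR fit with exposure in the model) against the mean log2 CPM over the 12 samples, with 1 point per gene tested; dashed lines mark 2-fold. Large differences sit at a low mean, which a near-silent set itself lowers, and the 13 all-or-none genes lie among them. Genes whose sets do not overlap but differ by less than 2-fold extend to high abundance.

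The difference between the sets was concentrated in genes of low abundance, taken as the mean log2 CPM over all 12 samples. A near-silent set itself lowers this mean. For example, gene41192 had a mean of 43.2 CPM in the first set but a mean log2 CPM of 2.46. A set holds 6 of the 12 samples and the T4 group only 4, so the comparison with T4 is affected as well. How much of the pattern this makes up was not tested. Of the 951 genes over 2-fold, 752 (79.1%) had a mean log2 CPM under 2, against 19.8% of all genes tested and 50.9% of the genes that T4 changed by over 2-fold. The median of the mean log2 CPM was 0.67 in the genes over 2-fold between the sets, 1.91 in those over 2-fold after T4 and 4.36 in all genes tested. By bins of mean log2 CPM, the share over 2-fold between sets fell from 35.6% (under 0) to 11.0% (0 to 2), 2.42% (2 to 4), 0.364% (4 to 6) and 0.0442% (6 and over), where 2 genes were left. Counting noise also widens differences at low counts. In the bin under 0, 24.5% of the genes were over 2-fold after T4 and 10.4% after the mixture. The sizes were therefore also computed with the noise between replicate pools taken out. The size of a difference is given as its root mean square over genes, after subtracting the variance expected from the spread of pools of the same exposure and set.

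With replicate noise subtracted, the set difference had a size of 1.09 on the log2 scale in genes with a mean log2 CPM under 0, and 0.67 from 0 to 2. These values were above those of T4, 0.66 and 0.49. From 2 upwards the order was the opposite. The set difference was 0.35, 0.17 and 0.11 in the bins from 2 to 4, 4 to 6 and 6 and over, against 0.51, 0.34 and 0.24 for T4. The mixture was smaller than the set in every bin, with 0.23, 0.16, 0.19, 0.14 and 0.09. In the most abundant genes the set difference and the mixture effect were the closest. Genes over 2-fold between the sets had a higher residual SD among replicate pools than all genes of their bin, which include them. The median was 0.62 in the genes over 2-fold and 0.55 in all genes of the bin under 0. It was 0.54 and 0.38 from 0 to 2, and 0.40 and 0.21 from 2 to 4. Choosing genes by a large difference in these same counts favours noisy genes, so this is a description only.

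**Figure D3:**
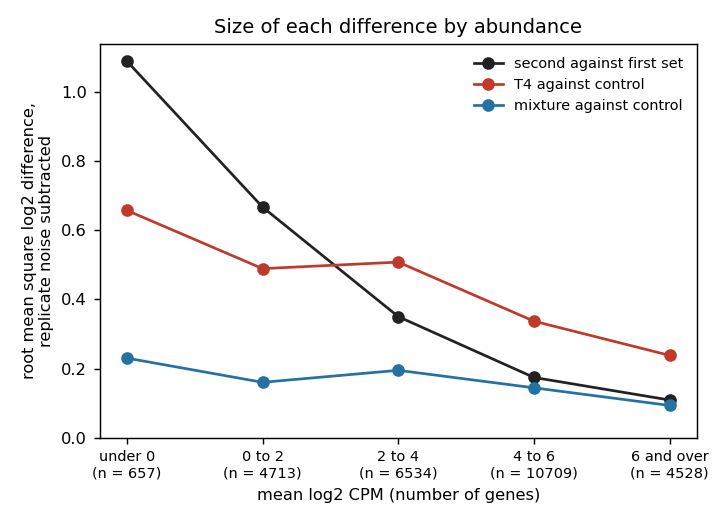
Root mean square log2 difference with replicate noise subtracted, by bin of mean log2 CPM (number of genes in brackets), for the second against the first set, T4 against control and the mixture against control. The set difference falls from 1.09 to 0.11 with abundance and crosses that of T4, which falls from 0.66 to 0.24.

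Over all genes tested, the set difference was close to the T4 effect in overall size and larger than that of the mixture, but differently distributed. Its noise-subtracted size was 0.39 ± 0.01 (jackknife SE over the 12 samples), that of T4 was 0.41 ± 0.02 and that of the mixture 0.16 ± 0.04. The filter on low counts was run again with each sample left out. All set sizes in these fits, 0.3868 to 0.3978, were above the 0.3867 of all 12 samples. The errors are therefore rough, and they treat pools that may share a breeding as independent. The gap between set and T4 was of the order of these errors and was not tested, and their order turned with a prior count of 0.5, at 0.45 for the set and 0.43 for T4. The sizes were further apart in well-counted genes. In the genes with at least 10 counts in every sample, a choice that removes genes silent in a set, the set difference was 0.23 and the T4 effect 0.38. Of the total variance of log2 CPM, the set took 28.2% (1 degree of freedom), the exposures 36.7% (2 degrees of freedom), their interaction 9.55% and the residual 25.6%. Per degree of freedom, the set had 1.53 times the mean square of the exposures and 6.62 times that of the residual. The first ratio compares sets of 6 samples with groups of 4, and it averages T4 with the mixture. With 4 samples on each side and noise not subtracted, the root mean square was 0.46 for T4 and 0.44 for the set on the control and T4 samples. On the control and mixture samples it was 0.25 for the mixture and 0.44 for the set.

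The set difference rested on far fewer genes. The 271 genes (1%) with the most variance by set held 46.3% of it. For the exposures, the 271 genes with the most variance held 18.5%, and for the residual 21.5%. The 951 genes over 2-fold between the sets held 68.1% of the variance by set. They also held 42.2% of the squared loadings of component 2, the axis from which the sets were chosen, and 3.48% of those of component 1. The components were computed on 38850 genes. Choosing genes by a large set difference itself gives them a large share of the variance by set and of component 2. The shares of these 951 genes are therefore a description only.

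Since the sets are compared with 6 samples on each side and an exposure with 4, contrasts of equal error were also formed. On the 8 control and T4 samples, T4 against control and second against first set are both 4 against 4. The median absolute log2 CPM difference was 0.21 for T4 and 0.12 for the set. At the 99th percentile the values were 1.72 and 1.85, and over 8-fold there were 10 genes for T4 and 87 for the set. T4 thus moved more genes by small amounts, and the set moved fewer genes by larger amounts. On the 8 control and mixture samples, the median was 0.13 for both the mixture and the set, but 2 genes were over 4-fold for the mixture and 233 for the set. With 12 samples and the set in the model, the genes over 2-fold were 951 between the sets, 1290 (4.75%) after T4 and 184 (0.678%) after the mixture. Over 4-fold they were 281, 181 and 9.

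**Figure D4:**
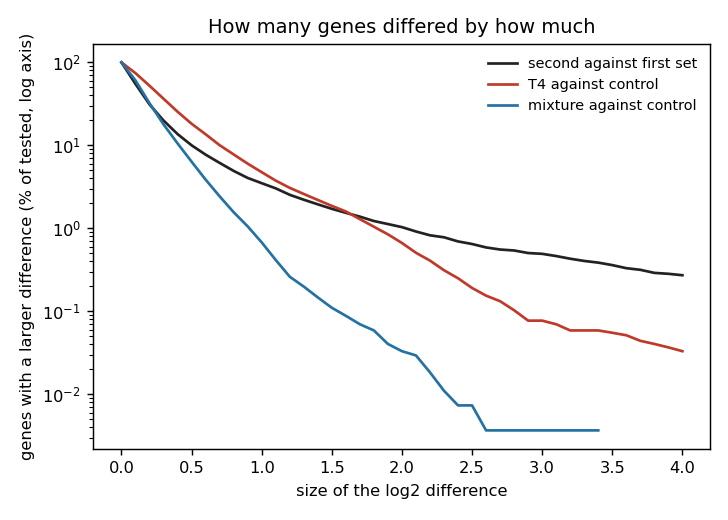
Share of the genes tested (log axis) whose absolute log2 difference exceeds the value on the horizontal axis, for the second against the first set, T4 against control and the mixture against control in the same edgeR fit. The T4 curve lies above the set curve at small differences and below it at large ones, with 181 against 281 genes over 4-fold.

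Many of the genes that differed between the sets did so in the same direction in each exposure group, though most did not pass 2-fold in all of them. The second-minus-first difference was measured apart in the control, mixture and T4 samples, which share no pool, as 2 against 2 samples of log2 CPM. Over the 27141 genes, which are not independent replicates and share the depth and preparation of each library, Pearson's r was 0.64 for control and mixture samples, 0.60 for control and T4 samples and 0.62 for mixture and T4 samples. Spearman's rho was lower, at 0.38, 0.36 and 0.40. The noise-subtracted size of the set difference was 0.40 in the control, 0.39 in the mixture and 0.39 in the T4 samples. In the control samples 1146 genes (4.22% of those tested) were over 2-fold between the sets. Of these, 1024 (89.4%) differed in the same direction in the mixture samples, where 589 (51.4%) were over 2-fold in that direction. In the T4 samples 979 (85.4%) had the same direction, and 506 (44.2%) were over 2-fold. By comparison, 61.2% of all genes tested had the same direction in the control and mixture samples, and 61.3% in the control and T4 samples. Of all genes tested, 4.26% and 4% were over 2-fold between sets in the mixture and T4 samples. The differences shrank when read in other samples, with a median ratio of 0.67 in the mixture and 0.59 in the T4 samples. In all, 2098 genes were over 2-fold between the sets in at least 1 exposure group. Of these, 1209 were over 2-fold in 1 group only and 392 were so in the same direction in all 3 groups, and in 38 genes it was over 2-fold in opposite directions in different groups. Since the sets were chosen on all 12 samples together, this agreement describes them and does not test them.

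Whether an exposure acted differently in the sets was tested, since that contrast was not used to choose them. In the edgeR fit of the 6 combinations of exposure and set, 0 of 27141 genes (0%) were called for an exposure effect that depended on the set. An unadjusted p-value of edgeR under 0.05 was found for 2332 genes (8.59%), a larger share than the 0.05 that no dependence would give. For the mixture alone the count was 0 (0%; 2202 unadjusted) and for T4 alone 0 (0%; 2316 unadjusted). DESeq2 called 0 genes for the mixture (1050 unadjusted), 70 for T4 (1221 unadjusted) and 59 for both together (1138 unadjusted). It gave 25257 genes no adjusted p-value in the T4 test. Without the filter on low counts, edgeR called 2, 79 and 59. With a sample left out, the counts of edgeR were at most 2, 12 and 5, the highest without mixture sample 7 for the mixture and without T4 sample 11 for the others. The mean square of the interaction was 1.12 times that of the residual. Per gene, the mean square of the interaction was 0.0896 on the log2 scale, against 0.528 for the set and 0.344 for the exposures. Summed over genes, the interaction was thus small beside both. With 2 samples per combination, the lack of calls does not show that set and exposure simply added.

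The T4 effect was found in both sets. Within the first set 4415 genes (16.3%) passed the threshold after T4 and within the second set 5708 (21%) in edgeR. Of these, 2851 passed in both, which is 64.6% of the first and 49.9% of the second list, and 2840 of the 2851 changed in the same direction. Across genes, the T4 effects in the sets, which share no sample, correlated with Pearson's r 0.63 and Spearman's rho 0.60. Their size with noise subtracted was 0.39 in the first and 0.45 in the second set. The counts fell to 2040 in the first set without T4 sample 10, 2178 without control sample 1 and 2742 without T4 sample 9. In the second set they fell to 3115 without control sample 3, 3319 without control sample 4 and 3224 without T4 sample 11.

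For the mixture, the number of genes called differed between the sets. Within the first set 0 genes (0%) passed the threshold in edgeR, with 2366 at an unadjusted p-value under 0.05, and DESeq2 called 25 (1242 unadjusted). Within the second set 803 genes (2.96%) passed in edgeR, 261 higher and 542 lower than the control. In the first set, 703 of the 803 (87.5%) differed in the same direction, against 62.3% of all genes tested. Their median absolute log2 fold change was 0.54 in the second set, and in the first it was 0.16 in the same direction. As the genes were chosen on the second set, the larger value there is not a measure of a stronger effect. Across genes Pearson's r between the sets was 0.21 and Spearman's rho was 0.28. Noise between replicate pools lowers such correlations more for a small effect, so they cannot be compared directly with those of T4. The noise-subtracted size of the mixture effect was 0.06 in the first and 0.22 in the second set. The variance subtracted from its square was 0.0821 and 0.0784. Over all 3 exposure groups the variance between replicate pools was 0.0800 and 0.0798. The size of 0.06 is a small remainder after subtraction and has no error estimate. The root of the mean product of the mixture effects in the first and second set was 0.149. This is more than sizes of 0.06 and 0.22 can give, so these sizes are imprecise. It is close to the size of the mixture effect over all 12 samples, 0.157. Genes that passed in the second set and not in the first are not shown to differ between the sets, since the test of that difference called 0 genes. The count of 803 depended on single pools. It was 29 without mixture sample 7, 108 without mixture sample 8, 40 without control sample 3 and 105 without control sample 4. It was also 529, 513, 527 and 529 without mixture samples 5 and 6 and T4 samples 9 and 10, and 71 when only the 6 samples of the second set were fitted.

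**Figure D5:**
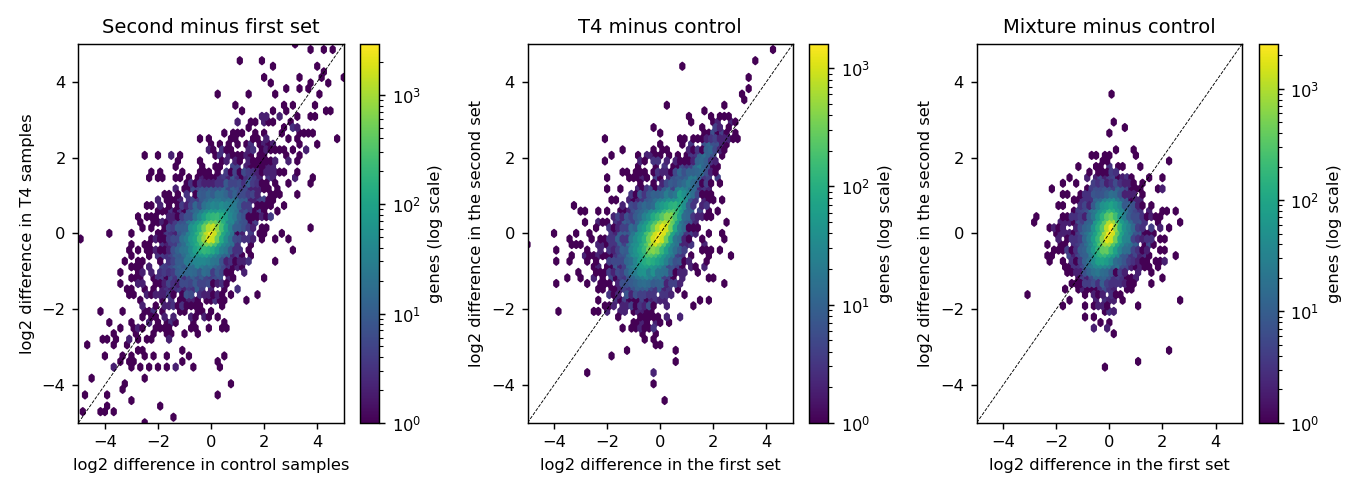
Log2 CPM differences of each gene measured in samples that share no pool, shown as the number of genes per hexagon (log colour scale): second minus first set in control against T4 samples (left), T4 minus control in the first against the second set (middle) and mixture minus control in the first against the second set (right). The dashed line marks equality. Pearson's r was 0.60 in the left, 0.63 in the middle and 0.21 in the right panel. Noise between replicate pools lowers r more where the effect is small, as for the mixture. Spearman's rho, which depends less on the largest differences, was 0.36, 0.60 and 0.28 in the same order. The sign was the same in 61.3%, 73.3% and 62.2% of the genes. In all, 21 genes lie outside the plotted range.

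With the set as a term beside the exposure, T4 gave 8379 differentially expressed genes (30.9%), 4752 higher and 3627 lower, and the mixture gave 625 (2.3%), 107 higher and 518 lower (edgeR, adjusted p under 0.05). Without the set term the counts were 6587 and 141, and all of these genes were also among those called with it. The count for the mixture was 67, 80, 92, 108 and 305 without mixture samples 7 and 8, control samples 3 and 4 and mixture sample 6 in turn. By the median, genes called after an exposure differed between the sets slightly less than all genes tested. Large set differences were rarer among them. Over 2-fold between the sets were 1.93% of the T4 genes and 1.76% of the mixture genes, against 3.5% of all genes tested. The sets did not overlap in 1.18% and 0.64% of them, against 3.46%, but an exposure effect itself widens each set. Neither share was matched for abundance. The median absolute log2 difference between the sets was 0.12 over all genes tested. Among the T4 genes the median absolute log2 difference was 0.43 for T4 and 0.10 for the set, and the set difference was the larger in 424 (5.06%). Among the mixture genes these medians were 0.43 and 0.11, and the set difference was the larger in 28 (4.48%). Choosing genes by a called exposure effect favours a larger exposure effect, so these last counts are a description only.

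Genes over 2-fold between the sets were called after T4 less often than all genes tested. With a mean log2 CPM under 2, their share was close to that of the other genes. Of the 951 genes over 2-fold between the sets, 162 were called after T4 (17.0% of the 951 and 1.93% of the T4 genes), where 30.9% of all genes tested were called. Abundance moved with this share. Among genes with a mean log2 CPM under 2, 13.7% of those over 2-fold between the sets and 14.7% of the others were called after T4. This range is wide, and genes over 2-fold between the sets lay lower within it. They were 234 of 657 genes under 0 and 518 of 4713 genes from 0 to 2. No share at a closer match of abundance was computed. After the mixture, 11 of the 951 were called (1.16% of the 951 and 1.76% of the mixture genes), against 2.3% of all. For the mixture no share by abundance was computed.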

How the data were processed

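RNA of 12 pools of brains was sequenced as single-end reads. The deposited values are counts of reads per gene. Before counting, duplicated reads had been reduced to a single copy by the authors, who then trimmed 11 bases at the start and 1 at the end, kept reads of 64 bases (cutadapt 1.15, per the submitters' processing notes), mapped them with Bowtie2 (2.2.4) to the *X. laevis* genome (release 9.2), retained reads with a unique place and counted them with HTSeq (0.9.1) in union mode. Component 2 was removed by the authors in a later step, and the deposited counts contain it. The 5 totals that name no gene, 38.3% to 42.2% of all reads, entered neither library sizes nor tests.

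Counts were filtered (filterByExpr, minimum count 10), scaled (TMM) and tested with edgeR (4.0.16, R 4.3.3) by the quasi-likelihood test, with exposure and set or with their 6 combinations as terms, at a Benjamini-Hochberg adjusted p-value under 0.05. The 4 pools of a group came from 2 breedings, which the study calls technical replicates and the labels do not assign to pools. Some pools of a group therefore shared a breeding. The p-values measure only the spread between these pools, which may be technical. Sizes, variances and correlations used log2 CPM with a prior count of 2. Scripts were tested on simulated data. DESeq2 (1.42.0), RLE size factors, other filters and prior counts, and leaving out each sample were the alternatives. Permutation tests used scipy (1.17.1) and figures matplotlib (3.10.9). Genes were named by a rule: for each direction, the all-or-none gene with the highest mean level and the non-overlapping gene above the floor in every pool with the largest difference. The sets, members and lists were chosen with earlier results of these data known.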

Additional observations from a re-analysis of the deposited data

Results flagged for a closer look

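A pool far from the other 5 of its set was found for 3 of 20 groups of values examined (6 read measures and 4 named genes in each set), by the gap of its value to the nearest other value relative to the range. Chance flags about 1 in 20 such groups. In the first set, T4 sample 10 had 24.8930% of reads not aligned, against 21.3% to 22.4% in the others. In the second set, T4 sample 12 had 24.6985%, against 20.3% to 21.4%, and 3.10044% of its reads lay on overlapping genes, against 3.20% to 3.24%.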

How the results depend on the processing

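Depth limits the low end, where differences under the floor were not detectable. Of the 281 genes over 4-fold, 56 had a set wholly at or under the floor. Under the alternatives that kept all samples, 83 values of the comparisons kept their side of the threshold, their count within 1.5 times or their value within its jackknife error, and 31 did not. None of these values changed sign. With RLE size factors all values compared stayed within these limits. The cause of the other changes was not tested, except that requiring 10 or more counts in all samples by its construction removes genes silent in a set. Under it, 241 genes were over 2-fold and 24 over 4-fold between sets, the set took 18.05% and the exposures 49.9% of the variance, the sizes of set and T4 were 0.23 and 0.38, the set difference had r of 0.51, 0.47 and 0.51 between control and mixture, control and T4, and mixture and T4 samples, and the T4 and mixture effects had r of 0.74 and 0.31 between sets. Without a filter, 6254 and 1324 genes were over 2-fold and 4-fold, 58 genes were called for the mixture in the first set, and 2, 79 and 59 for the mixture, T4 and joint dependence on the set. DESeq2 called 1026 genes for the mixture with the set in the model, 25 for the mixture and 2936 for T4 in the first set, and 70 and 59 for the T4 and joint dependence. The mixture with no set term gave 141. Fits of only 6 samples gave 1 gene for the mixture in the first set and 71 in the second. A prior count of 0.5 gave sizes of 0.45 for the set and 0.43 for T4, which turns their order, and a prior count of 5 gave 0.33 and 0.39. All-or-none genes numbered 2, 75 and 28 under 0 counts, 10 counts and 0.5 CPM.

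With each sample left out, the calls ranged from 67 to 582 for the mixture and 6808 to 8365 for T4 with the set in the model, 0 to 8 and 29 to 866 for the mixture in the first and second set, 2040 to 4485 and 3115 to 5738 for T4, and 0 to 2, 0 to 12 and 0 to 5 for the dependence on the set of the mixture, T4 and both. The share of variance of the interaction was 10.1% to 10.9%, the size of the set difference 0.39 to 0.40, r of the T4 effect 0.53 to 0.62 and of the mixture effect 0.14 to 0.21. The filter on low counts was run again in these fits. These shares and sizes all lay above the values of all 12 samples, and these r all lay below them. None of them is thus a range around the value of all samples. Genes not overlapping numbered 1108 to 1213 and all-or-none genes 14 to 19. With a sample left out, both rules cover fewer pools, and all of these counts are above 938 and 13. The difference in reads not aligned ranged from −1.36 to −0.214 percentage points and in reads on overlapping genes from 0.0260 to 0.0617. No paired analysis was possible because the title numbers run from 1 to 12 with no number shared between groups.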
